A study of Danio rerio with 13 samples.

Results

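The genes described here are 8 symbols that mark or build myeloid cells, followed through zebrafish leukemias that were sorted for a lymphoid fluorescent reporter. They were chosen by symbol: the neutrophil genes lyz, mpx and csf3r, the macrophage genes mpeg1.1, marco and csf1ra, and the transcription factor genes spi1b and cebpa. Of the 8 symbols 7 could be tied to 9 of the 32105 gene identifiers in the deposited table. The name mpeg1.1 matched 3 identifiers that are all called MPEG1. No identifier carried the symbol mpx, and none was analysed under that name.

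Neutrophils and macrophages are the main phagocytes of the fish. Neutrophils store enzymes such as lysozyme and peroxidase in granules, while tissue macrophages depend on the receptor for colony-stimulating factor 1 and carry scavenger receptors and pore-forming proteins for killing engulfed microbes. The factor PU.1, encoded in zebrafish by spi1b, starts the myeloid program in the embryo. In mammals the same factor is also needed to make B cells and is turned off as T cells form, so its transcript alone does not mark a myeloid cell.

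The libraries came from acute lymphoblastic leukemias of fish with 2 transgenes, human MYC driven by the rag2 promoter and eGFP driven by the lck promoter. GFP-positive cells were sorted from total body, and 1 library of polyadenylated RNA was sequenced for each leukemia. All the fish carried both transgenes, so there was no control group, and fish age was not given in the sources used here. The rag2 promoter is active in B and T precursors, and the lck promoter drives the reporter used for the sort.

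Of 13 libraries the column hMYC-1 was left out, which leaves hMYC-2 to hMYC-6, hMYC-8 and hMYC-9 to hMYC-14. Its total of 51808498 reads was close to the 51478946 reads of hMYC-10 to hMYC-14 summed, and 1.45% of 11072 genes with at least 10 and under 1000 reads in that sum had fewer reads in hMYC-1. Not every gene followed that pattern: lck had 54540 reads in hMYC-1 and 68686 in the sum, and cebpa 2074 and 2091. Some genes had far more reads in hMYC-1 than in the sum, such as spi1b (3879 and 787) and csf3r (907 and 424). Others were close, such as marco (434 and 419) and csf1ra (144 and 136). The 12 libraries used held 8166453 to 12297780 reads. A B score was the mean log2 CPM of 7 B cell genes, cd79a, cd79b, PAX5, ighm, ighd, CXCR5 and igic1s1. It was lowest in hMYC-11, at -0.51, and highest in hMYC-3, at 6.16. CPM is the read count scaled to a library total that was adjusted by TMM. A T score from 15 genes ranged from 3.3 in hMYC-5 to 7.54. The T score was 6.91 or more in the libraries other than hMYC-3, hMYC-4 and hMYC-5. Each sample description also holds a letter of unstated meaning, d in hMYC-9 to hMYC-14 and c in the others used, 6 libraries each. All libraries are separate leukemias by label, and nothing states the number of fish beyond that.

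Reads of the 7 myeloid genes were present in all 12 sorted leukemias. Their median counts lay between 16.5 reads for csf1ra and 132 for lyz. The granule enzyme gene lyz (ENSDARG00000057789), which encodes lysozyme, had 433 reads in hMYC-6, 312 in hMYC-3, 297 in hMYC-4 and 194 in hMYC-12. It had 143 in hMYC-9, 135 in hMYC-14, 129 in both hMYC-5 and hMYC-8, 78 in hMYC-11, 62 in hMYC-13, 17 in hMYC-2 and 14 in hMYC-10. The spread was therefore graded, with 2 libraries low and no library empty. In CPM lyz ran from 1.28 in hMYC-10 to 41.1 in hMYC-6, a 32.1-fold range. Its log2 CPM averaged 3.41 ± 1.39 (SD, n = 12). With 14 reads in hMYC-10, the exact 95% Poisson interval is 7.7 to 23.5 reads, which covers counting error only. In bulk RNA, fewer myeloid cells and less RNA of a gene per cell cannot be told apart.

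The receptor for granulocyte colony-stimulating factor, csf3r (ENSDARG00000045959), drives neutrophil production. It had 351 reads in hMYC-5, 245 in hMYC-14 and 208 in hMYC-4, and 15 to 91 reads in the other 9 libraries. The 3 leading libraries held 68.1% of its 1181 reads, and of these hMYC-4 alone was also among the 3 highest for lyz. Its log2 CPM averaged 2.56 ± 1.32 (SD, n = 12).

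The name table has no mpx, but it gives the capitalised name EPX to ENSDARG00000019521 and the name epx to another identifier. EPX is the symbol of the human eosinophil peroxidase gene. The capitalised identifier was followed under that name after its values were seen, without being taken for mpx. The name table does not show whether this identifier is zebrafish mpx. EPX had between 10 reads in hMYC-10 and 118 in hMYC-6, with a median of 68.5. Its log2 CPM averaged 2.37 ± 1.03 (SD, n = 12). The lower-case epx had 41 reads in hMYC-3, 20 in hMYC-5 and 0 to 8 in the others.

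The macrophage genes were also present in every library, at their own order of levels. Reads of the 3 MPEG1 identifiers, which encode the pore-forming protein of macrophage phagosomes, were summed, since the table does not say which is mpeg1.1. The sum was 231 in hMYC-12, 183 in hMYC-3, 157 in hMYC-14, 144 in hMYC-4, 134 in hMYC-9, 94 in hMYC-6, 87 in hMYC-8, 80 in hMYC-10, 65 in hMYC-13, 30 in hMYC-11, 25 in hMYC-2 and 23 in hMYC-5. It ran from 1.95 to 23.4 CPM, and its log2 CPM averaged 2.99 ± 1.02 (SD, n = 12). The low end held hMYC-2, as for lyz, and hMYC-5, where lyz had 129 reads. Of the 1253 reads 982 came from ENSDARG00000055290, 270 from ENSDARG00000043093 and 1 from ENSDARG00000078569.

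The scavenger receptor gene marco (ENSDARG00000059294) had 184 reads in hMYC-14, 133 in hMYC-9, 115 in hMYC-12 and 81 in hMYC-13. It had 53 in hMYC-3, 40 in hMYC-4, 31 in hMYC-6, 29 in hMYC-8, 22 in hMYC-10, 17 in hMYC-11, 9 in hMYC-5 and 2 in hMYC-2. The 4 highest libraries all carry the letter d, and hMYC-2 is near the limit of detection, with an exact 95% Poisson interval of 0.2 to 7.2 reads. The receptor gene csf1ra (ENSDARG00000102986), on which macrophages and yellow pigment cells depend, was the sparsest, with 5 to 49 reads, a median of 16.5 and 253 reads in all. Of the yellow pigment cell genes, aox5 had at most 4 reads and XDH at most 3 in any library, while gch2, a pteridine synthesis gene, had 8 to 134. Like spi1b, gch2 rose with the B score (0.42 ± 0.10 log2 per unit, SE, edgeR adjusted p = 0.0196). The summed pigment cell list lay between 0.966 and 11.5 CPM, and its highest value was in hMYC-5, where csf1ra had 5 reads. The part of pigment cells in the csf1ra level was not tested.

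**Figure D1:**
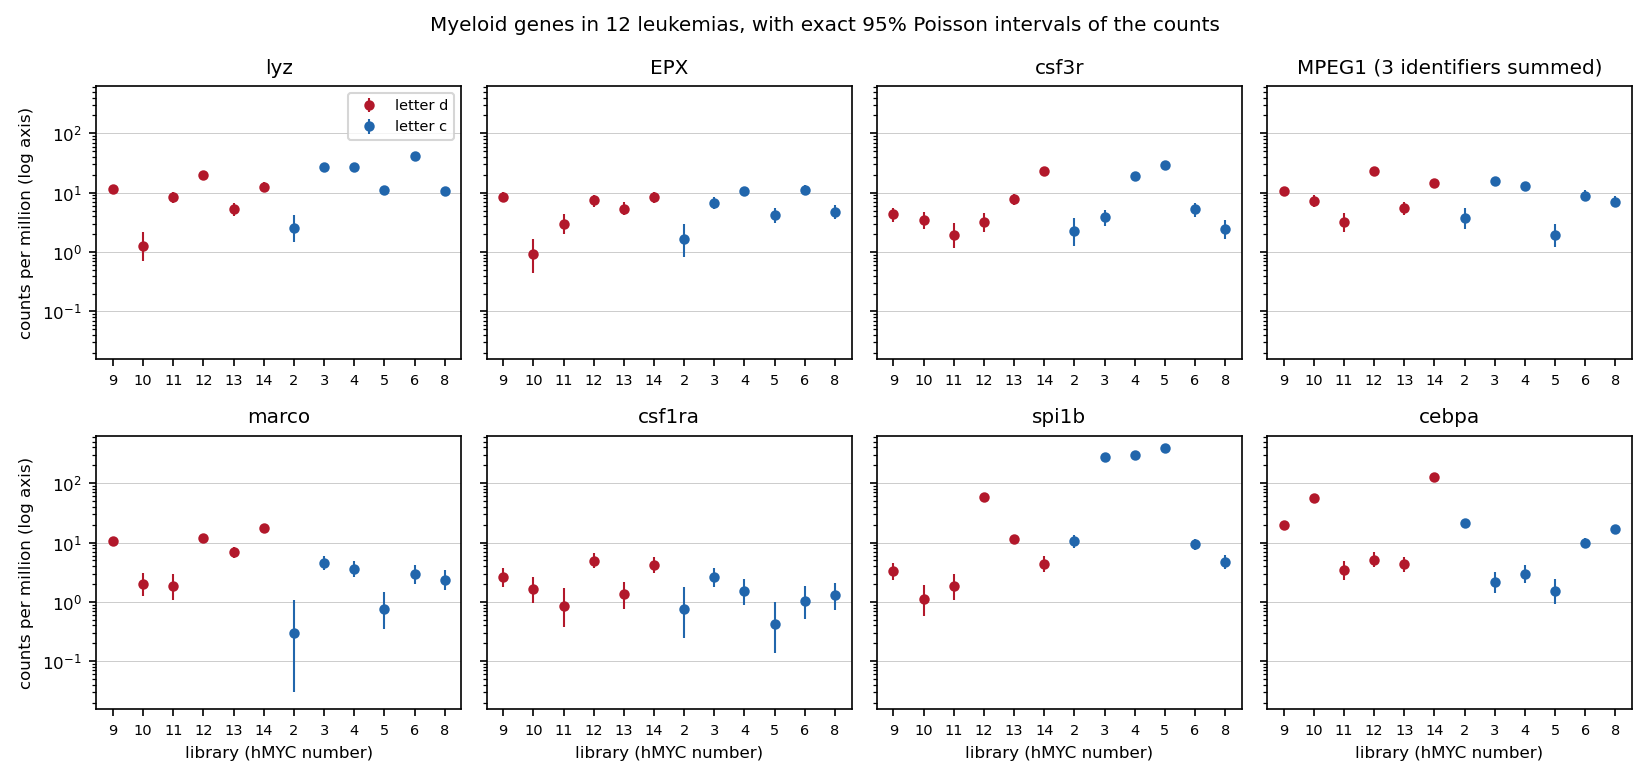
Level of each myeloid gene in CPM on a log axis in 12 sorted leukemias, with 1 point per library, the libraries of letter d left of those of letter c, and bars for the exact 95% Poisson interval of the count. The points of lyz, EPX, MPEG1, marco and csf1ra form graded ranges, while spi1b has 3 libraries between 274 and 388 CPM, hMYC-12 at 58.3 CPM and the others at 11.5 CPM or less.

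The transcription factor genes had wider ranges between leukemias than the cell type markers did, 353-fold in CPM for spi1b and 82.4-fold for cebpa, against 57.1-fold or less for the others. spi1b (ENSDARG00000000767, named SPI1 in the name table) had 4569 reads in hMYC-5, 3256 in hMYC-4 and 3158 in hMYC-3. It had 575 in hMYC-12, 136 in hMYC-13, 98 in hMYC-6, 69 in hMYC-2, 58 in hMYC-8, 47 in hMYC-14, 41 in hMYC-9, 17 in hMYC-11 and 12 in hMYC-10. The 3 leading libraries held 91.3% of its 12036 reads, and hMYC-12 alone lay between them and the rest. Its log2 CPM averaged 4.05 ± 2.91 (SD, n = 12), the widest spread of the 8 measures.

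The other factor gene, cebpa (ENSDARG00000036074), encodes a regulator of granulocyte and liver gene expression. It had 1342 reads in hMYC-14, 615 in hMYC-10, 245 in hMYC-9, 209 in hMYC-8, 140 in hMYC-2 and 103 in hMYC-6. The remaining 6 libraries had 18 to 51 reads, the lowest being hMYC-5, where spi1b was highest. The 2 leading libraries held 68.3% of its 2864 reads. Liver genes varied too: the 4 listed ones summed to 75.8 CPM in hMYC-14, the library highest in cebpa, but to 134 CPM in hMYC-12, where cebpa was at 5.17 CPM, and to 3.65 CPM in hMYC-10, where it was at 56.1 CPM. The part of liver cells in the cebpa level was not tested.

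The neutrophil and macrophage genes were next compared across leukemias, with Pearson's r and Spearman's rho of log2 CPM, and two-sided permutation tests of 100000 resamples. Among 34 relations computed, 33 were adjusted together with the Benjamini-Hochberg (BH) method. They included all 28 pairs of the 8 measures. Libraries rich in lyz were also rich in EPX, with r = 0.908 (permutation p = 0.00018, BH-adjusted p = 0.00198) and Spearman's rho = 0.853 (permutation p = 0.00088, BH-adjusted p = 0.00726). EPX was taken up after its values were seen, so these p-values describe the pair and do not test it. Without hMYC-10 and hMYC-2, the 2 libraries farthest from the median of lyz, r was 0.702 (permutation p = 0.0242). Within the letter d it was 0.897 and within the letter c 0.975 (exact permutation p = 0.0361 and 0.00556, n = 6 each).

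The macrophage genes likewise rose and fell together over the 12 leukemias. MPEG1 with csf1ra gave r = 0.912 (permutation p = 6e-05, BH-adjusted p = 0.00132) and Spearman's rho = 0.888 (permutation p = 0.00032, BH-adjusted p = 0.00462). Without hMYC-5 and hMYC-12 r was 0.822 (permutation p = 0.00331), and it was 0.988 within d and 0.95 within c (exact permutation p = 0.00139 and 0.00417, n = 6 each). This was the closest pair of the 28, although csf1ra had a median of only 16.5 reads.

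The scavenger receptor gene followed the same pattern. The pair marco with csf1ra was taken up after the data were seen, so its p-values describe it and do not test it. For marco with csf1ra r was 0.868 (permutation p = 0.00036, BH-adjusted p = 0.00297) and Spearman's rho 0.881 (permutation p = 0.00032, BH-adjusted p = 0.00462). Without hMYC-2 and hMYC-14 r was 0.865 (permutation p = 0.0016), and it was 0.837 within d and 0.805 within c (exact permutation p = 0.0514 and 0.0472, n = 6 each). For MPEG1 with marco r was 0.772 (permutation p = 0.00368, BH-adjusted p = 0.0243) and Spearman's rho 0.797 (permutation p = 0.00305, BH-adjusted p = 0.0201). Without hMYC-5 and hMYC-12 r was 0.678 (permutation p = 0.0279), and it was 0.783 within d and 0.868 within c (exact permutation p = 0.0792 and 0.0278, n = 6 each). That last relation was the least secure of the 3: its adjusted p was 0.0567 without hMYC-5 alone, 0.0586 without hMYC-12 alone, and 0.0985 with ENSDARG00000055290 in place of the sum.

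**Figure D2:**
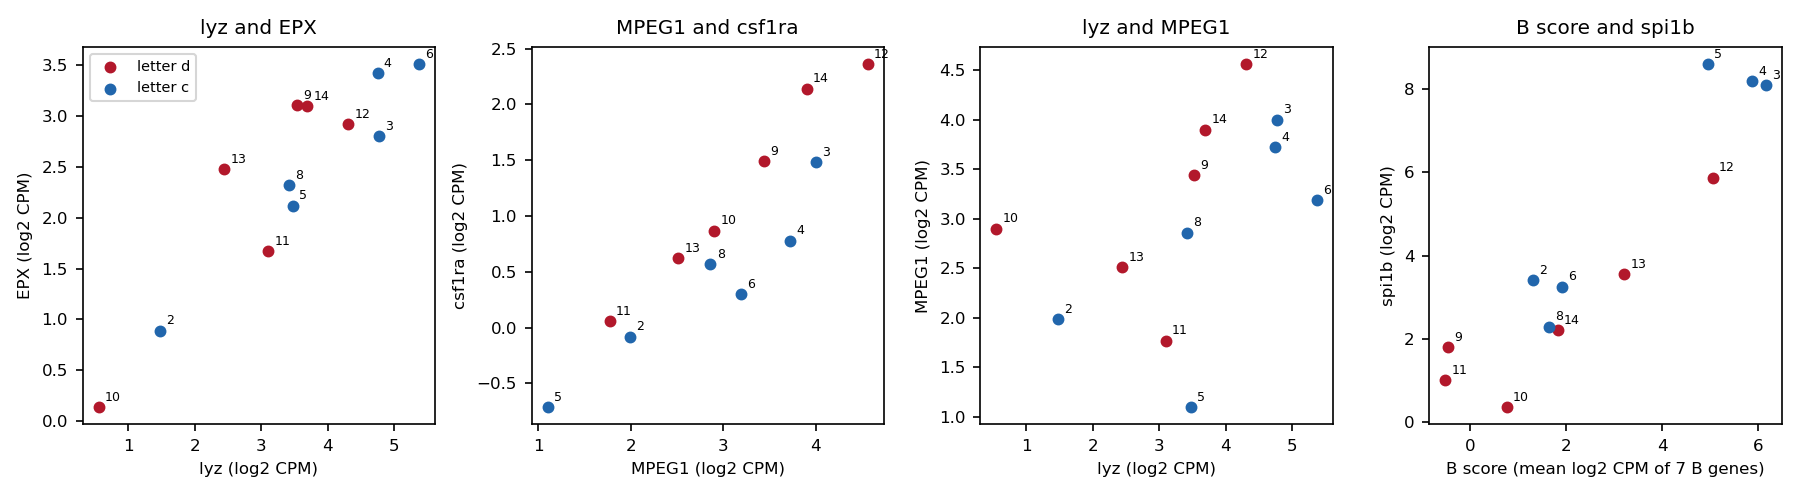
Levels in log2 CPM of 3 pairs of myeloid genes, and of spi1b against the B score, in 12 leukemias, with 1 numbered point per library, red for the letter d and blue for c. The pair lyz and EPX (r = 0.908) and the pair MPEG1 and csf1ra (r = 0.912) lie close to a line, while lyz against MPEG1 (r = 0.472) is scattered. spi1b climbs with the score (r = 0.931).

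Between lyz, csf3r or EPX and the macrophage genes no pair passed the adjusted test. The name EPX alone does not place that identifier among the neutrophil genes or outside them. The 6 pairs of lyz or EPX with MPEG1, marco or csf1ra had r between 0.258 and 0.631, all positive, with adjusted p between 0.117 and 0.595. For lyz with MPEG1, r was 0.472 (permutation p = 0.122, BH-adjusted p = 0.325) and Spearman's rho 0.664 (permutation p = 0.0221, BH-adjusted p = 0.0809). Without hMYC-10 and hMYC-2 r was 0.541 (permutation p = 0.107), and it was 0.506 within d and 0.654 within c (exact permutation p = 0.303 and 0.167, n = 6 each). EPX with marco was the nearest, at r = 0.631 (permutation p = 0.0285, BH-adjusted p = 0.117). Within the letters it was higher, at 0.88 within d and 0.879 within c (exact permutation p = 0.0139 in both, n = 6 each), as high as some pairs of macrophage genes. For lyz with marco the pooled r was 0.408 (BH-adjusted permutation p = 0.35), and it was 0.701 within d and 0.889 within c (exact permutation p = 0.104 and 0.0181, n = 6 each). Without hMYC-10 alone the adjusted p of EPX with marco was 0.0379, and that of EPX with MPEG1 was 0.0439. A p that misses the threshold does not show that lyz or EPX varied independently of the macrophage genes. Whether the correlations within and between these groups differ was not tested.

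The balance of the reads shows how far the leukemias differed. Of the reads of lyz and MPEG1 together, lyz made up 84.9% in hMYC-5 (95% Clopper-Pearson interval 78.2 to 90.2) and 82.2% in hMYC-6 (78.6 to 85.3). It made up 14.9% in hMYC-10 (8.39 to 23.7), and between 40.5% and 72.2% in the other 9 libraries. The intervals of hMYC-10 and hMYC-5 lie far apart, so this difference between libraries is larger than counting error. Gene lengths were not used, and so the shares compare libraries and not the abundance of the 2 genes.

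The other neutrophil gene found by its symbol, csf3r, did not pass with any measure. The only pair of neutrophil genes found by symbol, lyz and csf3r, therefore did not pass. The 7 pairs of csf3r had r between -0.0856 and 0.497, and the lowest adjusted p was 0.298, with spi1b. For lyz with csf3r r was 0.281 (permutation p = 0.378, BH-adjusted p = 0.567), and with EPX it was 0.405 (permutation p = 0.188, BH-adjusted p = 0.35). Its 2 highest libraries, hMYC-5 with 351 reads and hMYC-14 with 245, had 129 and 135 reads of lyz, near the median of 132.

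Other myeloid genes were taken from lists of neutrophil, macrophage, oxidase and regulatory genes that hold the usual markers of those cells. Every listed gene with 1 identifier that passed the filter was counted. The macrophage gene mfap4, which matched 6 identifiers, was left out. Of 6 tested neutrophil genes 5 had a higher r with lyz than with MPEG1, with medians of 0.72 and 0.34. Of 17 macrophage genes 12 had a higher r with MPEG1 than with lyz, with medians of 0.53 and 0.43. Over all 14817 genes tested 51.5% were closer to lyz, and both medians were 0. These are descriptions, as the libraries are shared by all the values.

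Among all genes tested, the closest 3 to lyz were npsn, a zebrafish neutrophil granule protease gene (r = 0.954), LECT2, which encodes a leukocyte chemotactic factor (r = 0.948), and EPX (r = 0.908). The reads of npsn were highest in hMYC-6, at 309, and lowest in hMYC-2 and hMYC-10, at 10 and 19, in the same libraries as lyz. For MPEG1 the closest were csf1ra (r = 0.912), the second PU.1 gene spi1a (r = 0.911) and OSBP2 (r = 0.908). For csf1ra they were the connexin gene gja13.2 (r = 0.949), the complement gene c1qa (r = 0.917) and CTSK, which encodes cathepsin K (r = 0.9). For marco they were CTSK (r = 0.941), ENSDARG00000101017 (r = 0.934) and the chemokine gene ccl34a.4 (r = 0.913). EPX was closest to chia.6 (r = 0.952), MYH9 (r = 0.949) and lyz (r = 0.908).

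The 3 genes nearest to csf3r were less close, with TRABD at r = 0.853, hdr at 0.833 and parla at 0.831. For cebpa they were YIF1A at r = 0.897, serpinb14 at 0.857 and CYRIB at 0.846. None of these 6 is on the neutrophil, macrophage or liver lists. For spi1b the nearest were NGFR (r = 0.995), ENSDARG00000089338 (r = 0.992) and pparg (r = 0.991), and no listed neutrophil or macrophage gene was among them. The highest of 14817 values is large by selection, so these r carry no test.

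The second question was whether spi1b follows the B cell genes rather than the myeloid ones. The 4 libraries with the highest spi1b, hMYC-5, hMYC-4, hMYC-3 and hMYC-12, had B scores of 4.95, 5.88, 6.16 and 5.06, against 3.21 or less in the other 8. The next in spi1b, hMYC-13 with 136 reads, had the score of 3.21. The relation of spi1b to the B score had r = 0.931 (permutation p = 8e-05, BH-adjusted p = 0.00132) and Spearman's rho = 0.881 (permutation p = 0.00042, BH-adjusted p = 0.00462). Without hMYC-5 and hMYC-4 r was 0.925 (permutation p = 0.00026). Within the letter d r was 0.902 (exact permutation p = 0.00972, n = 6). Within the letter c it was 0.958 (exact permutation p = 0.0778, n = 6) and rested on 3 libraries high and 3 low in both.

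**Figure D3:**
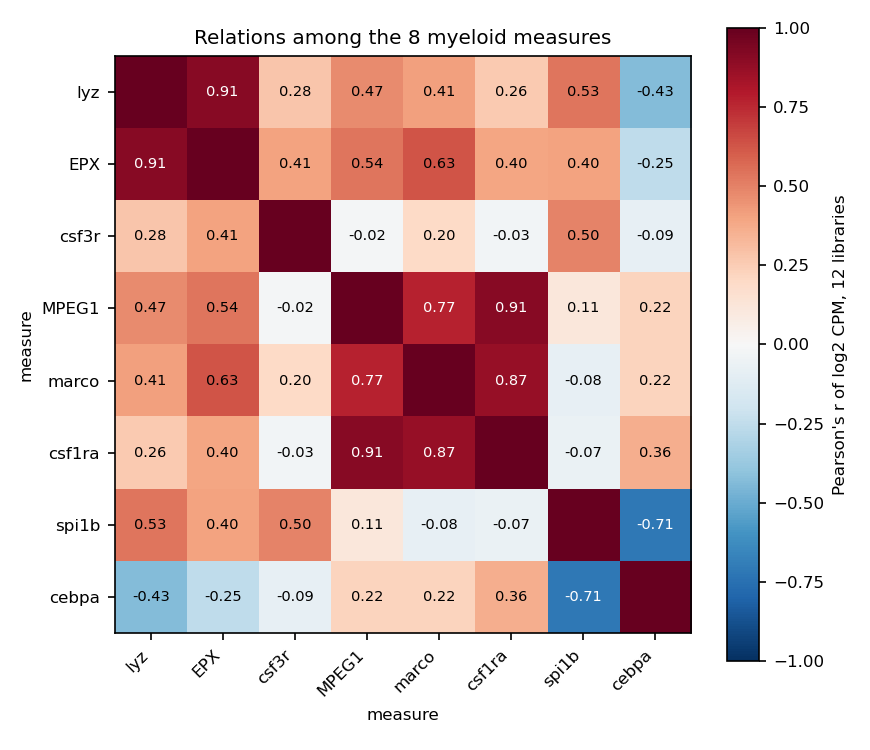
Pearson's r of log2 CPM over 12 leukemias for every pair of the 8 measures, as numbers and colours (red positive, blue negative). The dark blocks are lyz with EPX and MPEG1 with marco and csf1ra, csf3r has no r above 0.50, and spi1b with cebpa is the strongest negative pair (-0.71).

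In edgeR's quasi-likelihood fit over all 14817 genes, spi1b rose by 1.2 ± 0.14 log2 CPM per unit of B score (SE, n = 12, adjusted p = 0.000147). It was the only 1 of the 8 tested identifiers of the myeloid symbols that passed. That count is near the share of all genes tested, of which 11.6% passed in either direction, 8.79% rising and 2.85% falling. The median slope of all genes was -0.009. Of the 7 genes in the score 6 passed, which is built into the score. The other, ighm, had a slope of 0.30 ± 0.19 (SE, edgeR adjusted p = 0.34). Its reads were 2148 in hMYC-14, where spi1b had 47, and 133 in hMYC-5, where spi1b had 4569. With filterByExpr, the filter first planned, only 2 B genes entered the score. The slope of spi1b was then 1.55 ± 0.34 with an adjusted p of 0.041, and 203 genes passed in place of 1724.

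The slopes of the other tested identifiers of the 8 symbols were smaller and did not pass the test. They were 0.34 ± 0.17 for csf3r (SE, edgeR adjusted p = 0.225), 0.23 ± 0.14 for lyz (0.338), 0.10 ± 0.13 for csf1ra (0.683) and 0.02 ± 0.19 for marco (0.97). The MPEG1 identifiers ENSDARG00000055290 and ENSDARG00000043093 had slopes of 0.21 ± 0.10 (0.214) and 0.06 ± 0.20 (0.874). EPX, which was not matched to any of the 8 symbols, had 0.12 ± 0.12 (0.55). The slope of cebpa was the lowest, at -0.72 ± 0.28 (edgeR adjusted p = 0.117), and it was called without hMYC-11 (-0.83, edgeR adjusted p = 0.0488) or without hMYC-14 (-0.56, 0.0404).

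The slopes were also compared directly by least squares on log2 CPM, with permutation tests adjusted over 7 comparisons. This comparison was chosen after the data were seen, so its p-values describe the differences and do not test them. The slope of spi1b on the B score exceeded that of lyz by 0.86 ± 0.19 log2 per unit (SE, permutation adjusted p = 0.00194), that of csf3r by 0.89 ± 0.19 (0.00162) and that of EPX by 0.98 ± 0.18 (0.00162). It exceeded that of MPEG1 by 1.01 ± 0.24 (0.00162), csf1ra by 1.09 ± 0.23 (0.00162), marco by 1.09 ± 0.30 (0.00457) and cebpa by 1.63 ± 0.31 (0.00162). Leaving out any 1 library, the highest of these adjusted p-values was 0.0144, for marco. Over these libraries spi1b moved with the B score more steeply than each of the other measures. A slope depends on the spread of a measure too, and spi1b had the widest, at an SD of 2.91 log2 CPM.

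**Figure D4:**
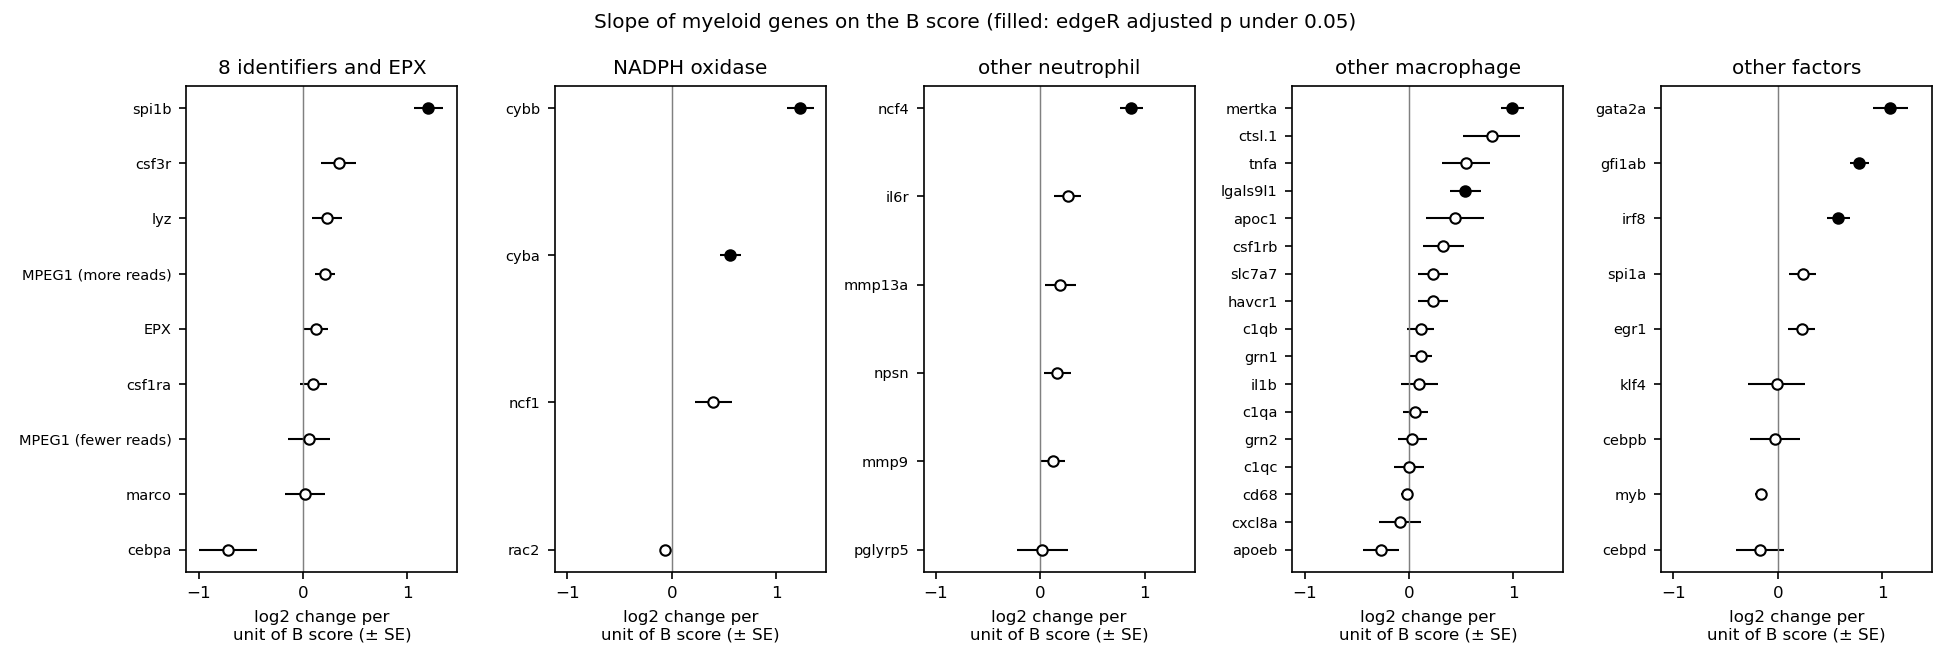
Slope on the B score in log2 CPM per unit of score, with bars of ± SE, for the 8 tested identifiers and EPX and for genes of the oxidase, neutrophil, macrophage and regulator lists, from edgeR's quasi-likelihood fit over 12 leukemias. Filled points passed an adjusted p of 0.05, among them spi1b at 1.2, cybb at 1.23 and mertka at 0.99, and every other point of the first panel is open.

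With lyz as a second covariate, the slope of spi1b was 1.19 ± 0.17 (SE, edgeR adjusted p = 0.00189), and with the T score it was 0.96 ± 0.12 (0.000618). The correlations of spi1b with the myeloid markers did not pass. Pearson's r was 0.534 with lyz (permutation p = 0.0717, BH-adjusted p = 0.237), 0.404 with EPX (BH-adjusted permutation p = 0.35), 0.112 with MPEG1 (0.854), -0.0794 with marco (0.885) and -0.0677 with csf1ra (0.889). The r with MPEG1 depended on hMYC-5: without that library it was 0.567 (BH-adjusted permutation p = 0.163). The leukemia richest in spi1b, hMYC-5, had the lowest MPEG1 count of the 12, at 23 reads, and 5 reads of csf1ra. The zebrafish paralogue spi1a, which also encodes a PU.1 protein, had 9 reads in hMYC-5 and 50 and 47 in hMYC-3 and hMYC-4, and its slope on the B score was 0.24 (edgeR adjusted p = 0.287).

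spi1b and cebpa tended to run in opposite directions over the leukemias, with r = -0.714 (permutation p = 0.00987, BH-adjusted p = 0.0465) and Spearman's rho = -0.713 (permutation p = 0.0116, BH-adjusted p = 0.0548). The pair was taken up after the data were seen, so its p-values describe it and do not test it. Without hMYC-5 and hMYC-4 r was -0.59 (permutation p = 0.0713), and it was -0.426 within d and -0.958 within c (exact permutation p = 0.404 and 0.0333, n = 6 each). The adjusted p of r lay between 0.00568 and 0.129 over the 15 alternatives that gave one, and 6 of these passed. It did not pass without hMYC-2, hMYC-3, hMYC-4, hMYC-5, hMYC-6, hMYC-8 or hMYC-9. Nor did it pass with edgeR's relative log expression (RLE) factors in place of TMM (0.0532) or with all 13 columns (0.101).

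On the T score none of the 8 identifiers passed edgeR's test, nor did EPX, where 4.95% of all genes did in either direction, 2.89% rising and 2.06% falling. The slope of spi1b was -1.54 ± 0.48 log2 per unit (SE, edgeR adjusted p = 0.0831), and that of cebpa was 1.22 ± 0.43 (0.122). DESeq2 called cebpa (1.19, DESeq2 adjusted p = 0.00714) and the MPEG1 identifier ENSDARG00000043093 (0.95, 0.0242). The adjusted p of spi1b was 0.0446 without hMYC-4, 0.0323 without hMYC-12, 0.0265 with filterByExpr and 0.00307 with DESeq2. No pooled r is given between spi1b and the T score, because hMYC-5 lies apart in the score. The slope of lyz was -0.12 (edgeR adjusted p = 0.864), that of marco 0.59 (0.399) and that of csf1ra 0.36 (0.481).

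The letter in the descriptions was compared in the same way, as d over c with 6 libraries each, and 0.135% of all genes tested passed, 0.0337% higher in d and 0.101% lower. None of the 8 identifiers or EPX did. Counts of marco were 133, 22, 17, 115, 81 and 184 in d (hMYC-9 to hMYC-14), against 2, 53, 40, 9, 31 and 29 in c (hMYC-2 to hMYC-6 and hMYC-8), and the groups overlap. Its log2 fold change of d over c was 1.75 ± 0.70 (SE, edgeR adjusted p = 0.189). For spi1b the log2 fold change was -3.58 ± 1.34 (edgeR adjusted p = 0.175), for cebpa 1.9 ± 1 (0.293) and for lyz -1.05 ± 0.66 (0.378). The counts of cebpa were 245, 615, 32, 51, 51 and 1342 in d, against 140, 25, 33, 18, 103 and 209 in c, again with overlap.

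Several genes of the oxidase, regulator, neutrophil and macrophage lists rose with the B score alongside spi1b. Of 4 genes counted from the phagocyte NADPH oxidase list, which make the burst of superoxide, 2 rose and none fell, where 8.79% of all genes tested rose and 2.85% fell. Their median slope was 0.48, against -0.009 for all genes tested. cybb, the catalytic subunit gene, rose by 1.23 ± 0.13 log2 per unit (SE, edgeR adjusted p = 5.5e-05). It had 5953, 5304 and 4488 reads in hMYC-3, hMYC-4 and hMYC-5, the libraries that led in spi1b. It had 855 reads in hMYC-12 and 14 to 184 in the other 8. The membrane subunit gene cyba rose by 0.56 ± 0.10 (edgeR adjusted p = 0.0021). NCF1 had a slope of 0.40 (0.178) and rac2, a GTPase of blood cells, -0.06 (0.484). Both calls held under all 23 alternative settings.

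In the regulator list 3 of 9 genes rose with the B score, against 8.79% of all genes tested, and none fell, against 2.85%. Their median slope was 0.23. GATA2 rose by 1.08 ± 0.17 (SE, edgeR adjusted p = 0.000971), GFI1 by 0.78 ± 0.09 (0.000101) and IRF8, a factor of macrophages and B cells, by 0.58 ± 0.11 (0.00387). IRF8 was not called with lyz as a second covariate. With filterByExpr 4 genes of this list were tested and 1 was called, IRF8, while GATA2 and GFI1 were not tested. The most abundant genes of the list, egr1 and MYB, had slopes of 0.23 (edgeR adjusted p = 0.281) and -0.16 (0.117), and CEBPB had -0.03 (0.951).

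In the neutrophil list 1 of 6 genes rose, where 8.79% of all genes tested did: NCF4, a further oxidase subunit gene (0.87 ± 0.11, SE, edgeR adjusted p = 0.000244), and the median slope was 0.17. The most abundant gene of that list, npsn, had a slope of 0.16 (0.481). Of 17 macrophage genes 2 rose, a share near the 8.79% of all genes, and the median slope of the 17 was 0.11. The 2 were mertka, a receptor kinase gene for uptake of dead cells (0.99 ± 0.11, edgeR adjusted p = 8e-05), and the galectin gene lgals9l1 (0.54 ± 0.15, 0.0404). The second was not called in 10 of 22 alternative settings. The reads of mertka were 270, 211 and 168 in hMYC-3, hMYC-4 and hMYC-5, and 2 to 30 in the others. Those others alone would not reach the mean count of 10 that the filter asks for. With filterByExpr NCF4, mertka and lgals9l1 were not tested. None of the 2 neutrophil and 3 macrophage genes it kept was called. The most abundant macrophage gene, cd68, which encodes a lysosomal membrane protein, had a slope of -0.02 (edgeR adjusted p = 0.904). A comparison list of 7 genes that B cells and myeloid cells share, such as btk and syk, rose in all 7, against 8.79% of all genes tested, with a median slope of 1.25. As these are also B cell genes, their rise with a score of B genes is no separate result. Between the letters none of these genes passed, where 0.135% of all genes tested did.

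Markers of cells other than lymphocytes and phagocytes moved between leukemias too. The summed erythroid list ranged from 3.38 CPM in hMYC-10, also the lowest in lyz, to 157 CPM in hMYC-14. The globin gene hbaa1 and lyz had r = 0.735 (permutation p = 0.00706, BH-adjusted p = 0.0388) and Spearman's rho = 0.741 (permutation p = 0.00759, BH-adjusted p = 0.0417). Without hMYC-10 and hMYC-2 r was 0.269 (permutation p = 0.456), and it was 0.952 within d and 0.912 within c (exact permutation p = 0.00556 and 0.0194, n = 6 each). Without hMYC-10 alone r was 0.531 and its adjusted p 0.204, without hMYC-5 the adjusted p was 0.0567 and without hMYC-12 it was 0.0586. For MPEG1 with hbaa1 r was 0.453 (permutation p = 0.138, BH-adjusted p = 0.325).

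The relation of lyz to lck, whose promoter drives the sorted reporter, did not pass after adjustment, at r = -0.382 (permutation p = 0.215, BH-adjusted p = 0.354) and Spearman's rho = -0.65 (permutation p = 0.0252, BH-adjusted p = 0.0832). The summed pancreas list ran from 0.456 CPM in hMYC-10 to 66.4 CPM in hMYC-6, the libraries lowest and highest in both lyz and EPX, though it was at 0.52 CPM in hMYC-3, where lyz had 312 reads. The epithelial list ran from 3.29 CPM in hMYC-10 to 69.6 CPM in hMYC-12, which was highest in MPEG1. Muscle genes were at 0 to 0.608 CPM in sum, and the thrombocyte list at 0.365 to 10.3 CPM. Whether these reads came from carried-over cells was not tested, nor was the part of such cells in the levels of lyz, MPEG1 and the other genes.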

How the data were processed

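RNA was measured in 13 sorted leukemias. The authors deposited 1 table of read counts, whole numbers per Ensembl gene identifier, not normalized. Per the submitters' processing notes, bcl2fastq, STAR, Picard and featureCounts and the build GRCz10 were used, with no versions. The annotation and the strand setting of the counting are not given in the sources used here, so overlapping, antisense and near-identical genes, such as the MPEG1 identifiers, may share or lose reads. Per the labels' protocols, RNA was extracted with Trizol and libraries came from a stranded Illumina kit.

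Symbols came from a gene name table that named 26269 of 32105 identifiers (81.8%). The RefSeq table of GRCz12tu was used for synonyms alone, and spi1b was found through SPI1. No genome of the files' build was used, so no coordinates or lengths are given and levels are not compared between genes. The symbols and lists were chosen with earlier results of these data known. 1 listed gene is not reported here. Listed symbols that match several identifiers were not used, nor was the column hMYC-1.

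From the counts, TMM factors, log2 CPM with a prior count of 2, and two-sided quasi-likelihood F tests were computed with edgeR 4.0.16 (R 4.3.3, limma 3.58.1), with the B score, the T score or the letter as covariate, and Benjamini-Hochberg adjustment at 0.05 over all genes tested. The fits were tested on simulated data. Genes needed a mean count of at least 10, which kept 14817. The planned filter, filterByExpr without groups, asks for expression in all 12 libraries and kept 10653 genes and 2 of the B genes, so the other filter, listed beside it as an alternative, replaced it after the counts were seen. Of the 9 identifiers 8 passed, ENSDARG00000078569 with 1 read not. A score is the mean log2 CPM of the listed genes that passed. EPX, the summing of MPEG1, the pairs beyond those first listed, and the differences of slopes were chosen after seeing the data. No pooled correlation is given where libraries form clusters, taken as a largest gap of 0.4 of the range or more. The smallest p that 100000 resamples can give is 1e-05. Alternatives were DESeq2 1.42.0, edgeR's RLE factors, other filters, prior counts, covariates and scores, all 13 columns and leaving out each library. Genes were named by a rule: the 8 symbols in full, genes of the 4 myeloid lists that passed or led their list in counts, and the 3 genes closest to each measure in r. Genes of the pigment cell list, spi1a, CEBPB and ighm were named after their values were seen. Replicates are single leukemias, so the p-values set each association against the variation between leukemias.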

Additional observations from a re-analysis of the deposited data

How the results depend on the processing

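The rise of spi1b with the B score passed in all 23 alternative fits, with slopes of 0.96 to 1.55 and adjusted p-values up to 0.041. Over 71 results, 1311 alternative values were computed. Of these 1252 neither gained nor lost significance nor moved, 19 lost significance, 15 gained it and 25 moved. No value that passed changed sign, but 56 values of 18 results did that passed neither before nor after (lowest adjusted p 0.175), most often marco on the B score and the pairs of csf3r. Of the other tested identifiers of the 8 symbols and EPX, cebpa alone was called on the B score in any alternative. It was called in 3, including DESeq2 (-0.72, adjusted p = 0.00111).

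Counts of genes depended more on the choices. The 1724 genes that follow the B score became 203 with filterByExpr (147 rising, 56 falling), 3047 with DESeq2 (1892 rising, 1155 falling), 1149 with lyz and 1011 with the T score (931 rising, 80 falling) as a second covariate, and 1094 to 2116 without 1 library. The 733 for the T score (428 rising, 305 falling) became 2110 with DESeq2, 406 with the letter as a covariate (352 rising, 54 falling) and 77 to 1210 without 1 library. The 20 between the letters became 7 with no filter, 47 with filterByExpr, 0 with all 13 columns, 1323 with DESeq2, 8 with the B score as a covariate and 5 to 41 without 1 library. At an unadjusted p under 0.05 the 12 libraries gave 3123 between the letters.

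Without 1 library, r was 0.914 to 0.941 for spi1b with the B score, 0.835 to 0.939 for lyz with EPX, 0.413 to 0.595 for lyz with MPEG1 and 0.876 to 0.94 for MPEG1 with csf1ra. Within the letter c, spi1b with the B score gave 0.958 (exact permutation p = 0.0778). Leaving out hMYC-12 or hMYC-13 for spi1b with the B score, and hMYC-2 for lyz with EPX, left gaps of 0.4 of the range or more, so no r was computed. DESeq2 called spi1b between the letters (-3.6, adjusted p = 0.0195) and on the T score (-1.55, 0.00307), and there also cebpa (1.19, 0.00714) and ENSDARG00000043093 (0.95, 0.0242). With 12 leukemias and median counts of 16.5 for csf1ra and 35.5 for marco, small slopes would not be detected. No paired analysis was possible because all libraries belong to 1 group. The cause of these changes was not tested.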
